A study of Mus musculus with 6 samples.

Results

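The genes studied here are 9 enzymes of liver nitrogen handling, taken by name from the 25078 genes of the deposited count and RPKM tables, of which 8 are described. These are the urea cycle enzymes Cps1, Otc, Ass1 and Asl, together with Nags, glutamine synthetase (Glul), the liver glutaminase (Gls2) and tyrosine aminotransferase (Tat). All were measured in Hepa1-6, an established mouse hepatoma line from C57/L, by RNA-seq after ribosomal RNA depletion, in cells grown in DMEM with 10% FBS and 1% penicillin/streptomycin. The 6 libraries were 1 of untransduced, untreated parental cells (wt), 2 of cells carrying a lentiviral scramble vector (scr 25-2 and scr 50-1) and 3 of cells carrying a lentiviral midnolin shRNA vector (kd 25-3, 50-2 and 50-5). The titles of the shRNA libraries read KO, but the treatment given for them is shRNA, and they are called knockdown (kd) here.

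The protocol for transduced cells was puromycin selection followed by limiting dilution to colonies grown from single cells, and the labels do not say which shRNA each kd library carries. Differences between clones and the effect of the knockdown therefore cannot be told apart, and the p-values measure the spread between these libraries. Library totals ranged from 25586301 to 33119710 counts, of which the ribosomal transcript Rn45s took 10.1% to 13.1%. Midn, the targeted gene (chr10:80148272-80158368, mm10, + strand), had an RPKM (reads scaled for exon length and, by TMM, for library size) of 60.5 in wt, 59.6 and 50.8 in scr, and 20.3, 21.8 and 22.1 in kd. It was lower in every kd library (log2 fold change -1.38, SE 0.133, FDR 0.00777, edgeR), and its FDR was 0.0525 without kd 50-2. The FDR is the Benjamini-Hochberg adjusted p over all 11577 genes tested, and genes were called at an FDR under 0.05 with a fold change of at least 1.5.

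The urea cycle turns the ammonia freed by amino acid breakdown into urea, and in mammals it runs in full mainly in periportal hepatocytes. It starts in mitochondria with carbamoyl phosphate made by Cps1, which needs N-acetylglutamate from Nags, and continues through Otc, Ass1 and Asl. Hepatocytes around the central vein instead fix ammonia into glutamine through Glul, while Gls2 releases it again on the periportal side and Tat carries out the first step of tyrosine breakdown.

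Promoter windows of 250 bases before the gene start were taken from RefSeq (GRCm38.p6), whose table matched 5 of the 9 genes (Otc, Ass1, Nags, Glul and Tat). The 3 printed here belong to Nags, the gene of the set that was called, to Glul, the most abundant, and to Otc, which had no counts in any library. They are at chr11:102145263-102145512 (Nags), chr1:153899679-153899928 (Glul) and chrX:10252055-10252304 (Otc), all on the + strand. Capitals mark matches to the 9 motifs searched on both strands.
Nags: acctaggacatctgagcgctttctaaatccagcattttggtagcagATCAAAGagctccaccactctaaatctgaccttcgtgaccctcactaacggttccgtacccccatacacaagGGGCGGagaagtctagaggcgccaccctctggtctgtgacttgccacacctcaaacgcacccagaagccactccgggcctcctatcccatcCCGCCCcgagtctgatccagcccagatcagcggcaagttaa
Glul: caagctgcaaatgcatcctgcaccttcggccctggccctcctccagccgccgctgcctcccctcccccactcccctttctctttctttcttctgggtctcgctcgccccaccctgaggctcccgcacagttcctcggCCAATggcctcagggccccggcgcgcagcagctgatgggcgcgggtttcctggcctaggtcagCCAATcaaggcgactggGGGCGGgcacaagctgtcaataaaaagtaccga
Otc: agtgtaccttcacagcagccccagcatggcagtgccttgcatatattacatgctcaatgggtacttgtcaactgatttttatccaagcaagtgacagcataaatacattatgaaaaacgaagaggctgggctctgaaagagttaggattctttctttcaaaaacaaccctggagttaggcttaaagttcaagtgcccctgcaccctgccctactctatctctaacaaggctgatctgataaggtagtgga

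The capitals in the Nags window are GC boxes (GGGCGG) whose matches start 132 and 41 bases before the gene and a TCF/LEF motif (CTTTGAT, here on the opposite strand) at 204 bases before it. In the Glul window they are CCAAT boxes at 113 and 50 bases and a GC box at 33 bases before the gene. Among 32851 RefSeq windows of this length, 32.7% hold the GC box, 33.8% the CCAAT box and 3.21% the TCF/LEF motif. The other motifs searched were TATAAA (12.4% of windows), the cAMP response element TGACGTCA (1.55%) and its core TGACG, which the full element contains (17.8%), the C/EBP motif TTGCNNAA (9.56%), the C/EBP-ATF motif TGATGNAA (3.45%) and the glucocorticoid receptor motif TGTTCT (16.1%). None of these was in the 3 windows printed. The observed over expected ratio of CpG was 0.613 for Nags, 0.601 for Glul and 0.0843 for Otc, beside a median of 0.373 over all windows. The GC content was 55.6%, 64.8% and 43.6% in the same order, beside a median of 52.4%. A match is a description of the letters only, and no binding was measured.

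Of the 9 genes, 5 had an RPKM over 1 in at least 1 of the scr and kd libraries and were tested (Asl, Nags, Glul, Gls2 and Tat). Nags was called higher in kd and none was called lower. Over all genes tested, 10.6% were called, 5.4% higher and 5.23% lower. Every kd library lay above both scr libraries for 3 of the genes (Asl, Nags and Glul), a pattern that 25.7% of all tested genes showed, while 24.5% showed the opposite pattern and none of the 5 genes did. The fitted log2 fold change was positive for all 5, although the signs of Gls2 and Tat turned under other settings. Their median of 0.84, beside -0.01 over all genes tested, is the value of Tat itself, for which no direction can be read. Nags and Tat entered the test only through kd libraries, which were the only ones above the RPKM minimum, so these counts cover the genes that passed and not the whole set of 9.

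**Figure D1:**
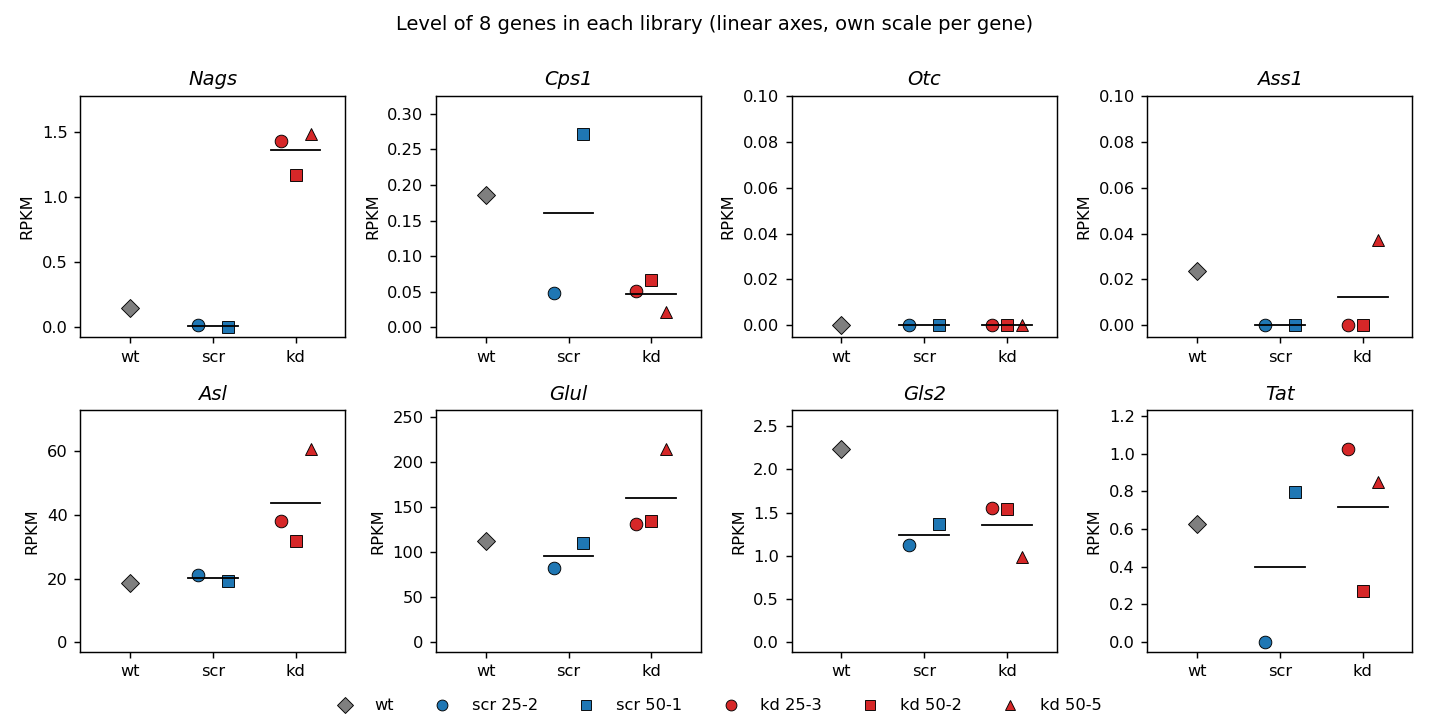
RPKM of 8 of the genes (linear vertical axes, each with its own scale) in the wt, scr and kd libraries, where each point is 1 library and horizontal lines are means of the 2 scr or 3 kd libraries. Nags, Asl and Glul lie higher in all 3 kd libraries than in both scr libraries, while Otc has 0 counts throughout and Ass1 has at most 2.

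Nags, N-acetylglutamate synthase, lies at chr11:102145513-102149528 (+ strand). It had 1 count in scr 25-2 and 0 in scr 50-1, against 96, 80 and 104 counts in kd 25-3, 50-2 and 50-5, and 8 in wt. The groups were wide apart, and the wt library lay between them. On the RPKM scale the level was 0.0161 and 0 in scr, 1.44, 1.17 and 1.49 in kd and 0.145 in wt, so that even in kd the gene lay above only 58.6% of all genes in the table. The 280 kd counts stood against 1 scr count, a ratio of 167 after scaling for library size (95% counting interval 29.8 to 6630). Against the 8 counts of wt the ratio was 9.41 (4.71 to 22.0), and both intervals cover counting error only. The difference between kd and scr was called (FDR 0.00777, edgeR), and the fitted log2 fold change of 7.08 depends on the prior count of the fit because scr is near 0. With each library left out in turn the FDR lay between 0.00491 and 0.0484. An antisense gene of GENCODE M21, Gm11586 (chr11:102145549-102146246, - strand), shares 698 bases with Nags and is not among the counted genes. No source says whether strand was used in counting, and without it reads of both genes in that stretch cannot be told apart.

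The enzyme that Nags serves was detected at a low level. Cps1 (chr1:67123027-67231267, + strand) makes carbamoyl phosphate from ammonia and is among the most abundant mitochondrial proteins of liver. Reads numbered 27 in wt, 8 and 43 in scr, and 9, 12 and 4 in kd. These correspond to an RPKM of 0.186 in wt, 0.0489 and 0.271 in scr, and 0.0512, 0.0668 and 0.0217 in kd. The kd and scr groups overlapped, and the scr libraries differed from each other by more than the kd libraries did from scr 25-2. Cps1 did not reach the RPKM minimum, and in a fit of all genes without that minimum its log2 fold change was -1.78 (SE 0.805, FDR 0.235).

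Otc (chrX:10252305-10321024, + strand), which joins carbamoyl phosphate to ornithine, had 0 counts in all 6 libraries. A count of 0 allows up to 3 counts, an RPKM between 0.0391 and 0.0496 in these libraries. Ass1 (chr2:31470270-31520670, + strand), argininosuccinate synthetase, had 1 count in wt, 2 in kd 50-5 and 0 in the other 4. The low Ass1 counts cannot be read as its level. The count table places the pseudogene Gm5424 at chr2:31470308-31520629 on the same strand, where it covers 99.84% of the span of Ass1, and gives it 0 counts in every library. The RefSeq table puts Gm5424 on chromosome 10 (62071022 to 62072571), and its transcript matches that of Ass1 over 1240 bases at 99.52% identity. HTSeq in its default mode leaves reads that overlap more than 1 gene uncounted, and the mode used is not stated.

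Asl (chr5:130011258-130024381, - strand), argininosuccinate lyase, splits argininosuccinate into arginine and fumarate and was counted in every library at a far higher level than Cps1 and Otc. Asl had an RPKM of 18.6 in wt, 21.1 and 19.3 in scr, and 38.2, 31.9 and 60.7 in kd, from counts between 884 and 3663. The kd libraries lay above all 3 control libraries, at 1.89, 1.58 and 3.00 times the scr mean, and kd 50-5 was the highest. The means were 20.2 ± 1.26 in scr (SD, n = 2) and 43.6 ± 15.1 in kd (SD, n = 3). The log2 fold change was 1.10 (SE 0.305), with an FDR of 0.0731 in the edgeR fit, which misses the threshold. The FDR was 0.00490 in DESeq2 and 0.0258 in edgeR with wt added to the controls, so the call depends on the method and on the controls. Leaving out each library in turn gave log2 fold changes of 0.78 to 1.29, none of which passed the threshold (FDR 0.0923 to 0.155). The median log2 fold change of the 46 other tested genes within 5 Mb of Asl was 0.06.

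Glul (chr1:153899929-153909723, + strand), which makes glutamine from glutamate and ammonia, was the most abundant gene of the set in every library. Its RPKM was 113 in wt, 82.7 and 110 in scr, and 132, 135 and 215 in kd, from counts between 6836 and 19942. It lay above 97.9% of all genes in the table by the scr mean and above 99.1% by the kd mean. The kd libraries lay above both scr libraries and wt, at 1.37, 1.40 and 2.23 times the scr mean, with kd 50-5 again the highest. Means were 96.3 ± 19.2 in scr (SD, n = 2) and 160.5 ± 46.9 in kd (SD, n = 3), a log2 fold change of 0.73 (SE 0.278, FDR 0.144, edgeR), which was not called. The log2 fold change was 0.45 to 0.94 with each library left out in turn, and the FDR was 0.0505 in DESeq2. The 39 tested neighbours within 5 Mb had a median log2 fold change of 0.32, the highest of the 5 genes' surroundings, and Glul exceeded that median by 0.41. A processed copy, Glns-ps1 (chr11:19720355-19721472), matches Glul over 1126 bases at 96.8% identity and is not among the counted genes, so some reads of either could have been misplaced.

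Gls2 (chr10:128194635-128210004, + strand), the liver glutaminase that frees ammonia from glutamine, was low and did not separate the groups. Its RPKM was 2.23 in wt, 1.12 and 1.37 in scr, and 1.55, 1.54 and 0.983 in kd. The wt library was the highest, and kd 50-5 was the lowest of all. The log2 fold change was 0.11 (SE 0.327, FDR 0.846, edgeR), and its sign turned when wt was added to the controls (-0.21) or when scr 25-2 was left out (-0.0076). The 3′ end of Gls2 shares 95 bases with Spryd4, on the opposite strand, which had 350 to 580 counts. The ratio of Glul to Gls2 on the RPKM scale lay between 50.5 and 218. Glul stood at 3.45 to 6.07 times Asl.

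Tat (chr8:109990436-109999804, + strand), whose transcription in liver is induced by glucocorticoids, varied more within scr than between the groups. The wt library held 39 counts, the scr libraries 0 and 54, and the kd libraries 77, 21 and 67, an RPKM of 0.629, of 0 and 0.797, and of 1.03, 0.273 and 0.852. The scr libraries spanned from no counts to a level above that of kd 50-2, so the groups overlapped. The log2 fold change was 0.84 with an SE of 1.39 (FDR 0.720, edgeR). It was -0.15 without scr 25-2 and 8.75 without scr 50-1, which leaves as control the library with 0 counts (FDR 0.0470).

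**Figure D2:**
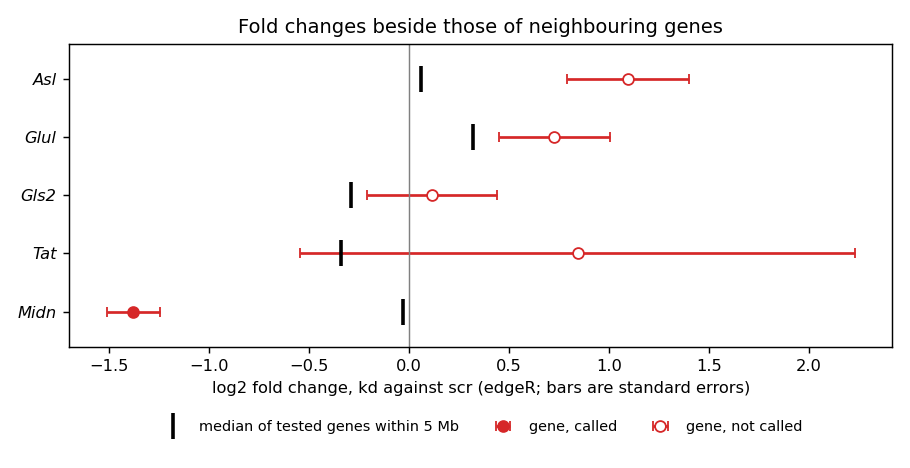
Log2 fold change of kd against scr (horizontal axis) of Asl, Glul, Gls2, Tat and the targeted gene Midn, with bars for standard errors, filled points for called genes and black ticks for the median of tested genes within 5 Mb. Midn lies at -1.38, Asl and Glul at 1.10 and 0.73 but uncalled, Gls2 near 0, and Tat has a standard error of 1.39; Nags is left out because its fitted value depends on the prior count.

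In order of mean RPKM in kd, the set ran from Glul through Asl to Nags, Gls2 and Tat. Gls2 and Nags had means of 1.36 and 1.37 there and did not differ beyond their SDs (0.325 and 0.170). In scr, Nags instead lay below Cps1, whose mean was 0.160 ± 0.157 (SD, n = 2), and Tat lay at 0.399 ± 0.564 (SD, n = 2), both with an SD near or above the mean.

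The genes whose pattern over the 6 libraries was most like that of each tested member were found by the root mean square difference of centred log2(RPKM + 0.1), as a description over libraries that share their groups. For Nags these were Dpy19l3 (0.126) and Serpine2 (0.135). Dpy19l3 had an RPKM of 0.155 in wt, at most 0.00458 in scr and 0.989 to 1.48 in kd. Serpine2 was expressed in scr (RPKM 2.23 and 1.91) and lay at 24.2 to 36.5 in kd. Its log2 fold change was 3.81, against 7.08 for Nags, as the added 0.1 narrows differences near 0. For Asl they were Pfkfb4 (0.0910) and Lzts3 (0.105), and for Glul Tuba4a (0.0871) and Lipt1 (0.0944), both pairs highest in kd 50-5 as their members were. Gls2 was closest to Rpn1 (0.0849) and Rbp4 (0.0866), which were also highest in wt and lowest in kd 50-5. The nearest genes to Tat, Mir7115 (0.372) and Pdzrn3 (0.413), were much farther from it than those of the other members.

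Around the 9 genes, 8 lists of related genes held 124 distinct genes, a few of them in more than 1 list, of which 83 were tested and 8 called, 5 higher and 3 lower. This is 9.64% of those tested, beside 10.6% over all genes. Of the 83, 22 had an unadjusted p under 0.05, beside 3641 of all 11577. The counts that other fits gave for single lists are to be read against their own shares over all genes tested. DESeq2 called 20.1% of them (10.1% higher and 9.98% lower), limma 10.4% and 10.0% with pseudocounts of 0.1 and 1, and edgeR 19.9% without scr 25-2 (10.0% higher and 9.87% lower) and 11.3% without scr 50-1 (5.87% higher and 5.39% lower). The 2 called amino acid transporters and Nags were called under every alternative that kept both scr libraries. The calls of the other 6 genes were lost when any of the 3 kd libraries was left out. Those fits called only 2.24% (without kd 25-3), 1.14% (50-2) and 3.01% (50-5) of all genes tested. The 2 transporters and Ppargc1a, a called regulator, passed the RPKM filter only through kd libraries. The split of 5 higher and 3 lower therefore rests partly on that filter.

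Glutamine use and transport had 25 tested genes of 28, with 2 called higher, none lower and a median log2 fold change of 0.14 (0.09 without kd 25-3, 0.33 without scr 50-1). DESeq2, which called 20.1% of all genes, called 4 of these higher and 1 lower, limma 4 higher, and edgeR 4 higher and 2 lower without scr 25-2 and 5 higher without scr 50-1. Slc38a1, a sodium-coupled importer of glutamine and other neutral amino acids, had an RPKM of 0.0283 and 0.0293 in scr, 0.0229 in wt and 3.83, 2.90 and 2.81 in kd (log2 fold change 6.75, SE 0.309, FDR 0.00212, edgeR). Slc38a4, a related importer found mainly in liver, had an RPKM of 0.0571 and 0.0169 in scr, 0.387 in wt and 13.2, 5.67 and 12.2 in kd (log2 fold change 8.07, SE 0.700, FDR 0.00618). Both resembled Nags in being near absent from scr and present in every kd library. Both passed the RPKM filter only through kd libraries, so the called genes of this list entered the test through kd alone. Their fold sizes rest on scr counts of 7 and 7 (Slc38a1) and 7 and 2 (Slc38a4). In limma on log2(RPKM + 1) the log2 fold changes were 2.01 and 3.38. The most abundant uncalled genes were another importer of the family, Slc38a2 (log2 fold change -0.42, FDR 0.334), and the ornithine aminotransferase Oat (-0.09, FDR 0.894). Asparagine synthetase, Asns, which spends glutamine and was chosen after its values were seen, had a log2 fold change of 0.55 (FDR 0.296).

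Urea cycle support, the carriers and enzymes that supply or clear its intermediates, had 13 tested genes of 16 and none was called in the edgeR fit, with 2 at an unadjusted p under 0.05, while DESeq2 called 1 higher and limma 0. Its median log2 fold change was 0.17 (0.11 with either scr library left out), and its most abundant genes were the malate dehydrogenases Mdh2 (0.36, FDR 0.125) and Mdh1 (0.17, FDR 0.663). Of the 9 tested of 17 genes of arginine and ornithine fate, 1 was higher and 1 lower (median 0.06, and 0.33 without scr 50-1). Odc1, ornithine decarboxylase, which commits ornithine to polyamines, had a mean RPKM of 12.1 ± 2.72 in scr and 27.5 ± 4.37 in kd (SD, n = 2 and 3; log2 fold change 1.17, SE 0.218, FDR 0.0306, edgeR). Its FDR was 0.0595 to 0.121 without 1 kd library and 0.0581 without scr 50-1. Sat1, the acetyltransferase that starts polyamine breakdown, had 43.1 and 92.4 in scr against 13.7, 15.5 and 16.4 in kd (log2 fold change -2.17, SE 0.319, FDR 0.0173), with an FDR of 0.0678 to 0.0870 without 1 kd library. Uncalled were Azin1, an inhibitor of antizyme (0.44, FDR 0.102), and Srm, spermidine synthase (0.10, FDR 0.755). The levels of Amd1 and Oaz1 are uncertain, since the table lays their copies Amd2 and Oaz1-ps over 99.9% and 95.7% of their spans on the same strand, and they had 1 and 896 counts over all 6 libraries. Cover of the span alone does not empty a gene. Got1, Aldh18a1 and Gldc lie within the spans given for small RNA genes and had 20592, 14056 and 222 counts. Overlap of exons was not examined for these genes, so the levels of Amd1 and Oaz1 stay uncertain.

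Phenylalanine and tyrosine breakdown, the path that Tat opens for tyrosine, had 4 tested genes of 7 with 1 called lower. The median log2 fold change of these 4 was -0.48, but -0.10 without scr 25-2 and -0.71 without scr 50-1. Pcbd1, which recycles the cofactor of phenylalanine hydroxylase, had 122 and 101 in scr and 52.6, 68.4 and 71.1 in kd on the RPKM scale (log2 fold change -0.82, SE 0.184, FDR 0.0473). The FDR of Pcbd1 was 0.0980 to 0.150 without 1 kd library and 0.0826 without scr 25-2. Qdpr and Gstz1 were not called (log2 fold changes 0.13 and -0.70, FDR 0.664 and 0.164). Other liver amino acid breakdown had 9 tested genes of 24, none called by edgeR and 2 at an unadjusted p under 0.05, while DESeq2 called 1 lower, limma 0, and edgeR 1 higher without scr 25-2. Its median was -0.29, but -0.43 without kd 25-3, -0.19 without kd 50-2 and 0.13 without the RPKM filter. Its most abundant members, Shmt1 and Bckdha, had log2 fold changes of -0.04 and -0.29 (FDR 0.930 and 0.337).

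**Figure D3:**
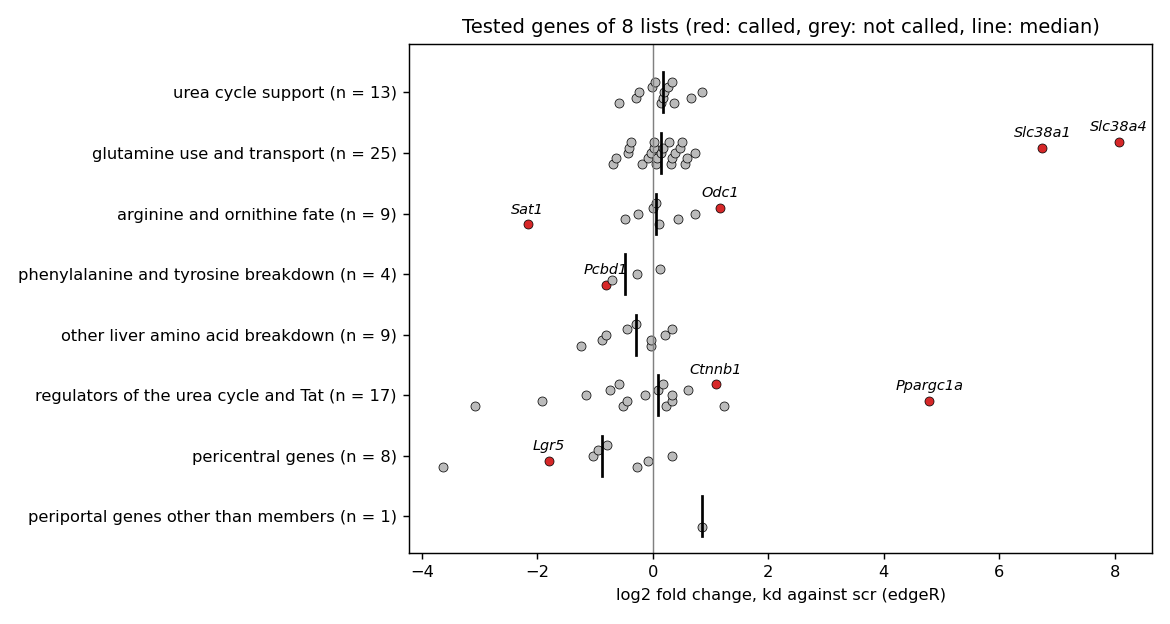
Log2 fold change of kd against scr (horizontal axis) of each tested gene in the 8 lists (rows, with the number tested), red where called, grey where not, with black lines for list medians. Slc38a1 and Slc38a4 stand at 6.75 and 8.07, apart from the other 23 tested genes of their list. Both values rest on scr counts of at most 7. The list medians run from -0.87 (pericentral genes, -0.10 without scr 50-1) to 0.85 (the 1 tested periportal gene, which passed the filter only through kd 50-5).

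Regulators of the urea cycle and of Tat had 17 tested genes of 18, with 2 called higher, none lower and a median log2 fold change of 0.09 (-0.05 without scr 25-2). That split was 2 higher and 2 lower in DESeq2 (20.1% of all genes called). It was 0 and 0 with any 1 kd library left out, fits that called only 1.14% to 3.01% of all genes. The split also moved with either scr library left out, which leaves 1 control. Ppargc1a, a coactivator that serves gluconeogenic and mitochondrial genes in liver, had an RPKM of 0.304 and 0.0320 in scr, 0.0698 in wt and 4.14, 4.07 and 5.97 in kd (log2 fold change 4.79, SE 0.865, FDR 0.0284). Without 1 kd library its FDR was 0.0903 to 0.101, and its log2 fold change was 7.18 without scr 25-2 and 3.94 without scr 50-1. Ppargc1a passed the RPKM filter only through kd libraries. Ctnnb1, beta-catenin, which drives Glul in pericentral hepatocytes, had 162 and 105 in scr and 322, 303 and 234 in kd (log2 fold change 1.09, SE 0.249, FDR 0.0496). The call of Ctnnb1 was lost without 1 kd library (FDR 0.0874 to 0.164), without scr 50-1 (FDR 0.0892) and with upper quartile scaling (FDR 0.0549). Atf4, the amino acid response factor, and Nr3c1, the glucocorticoid receptor, had log2 fold changes of -0.13 (FDR 0.794) and -0.74 (FDR 0.0811).

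The pericentral genes, which share their zone with Glul, had 8 tested of 11, with 1 called lower and a median log2 fold change of -0.87, which was -0.10 without scr 50-1 and -1.14 without kd 50-5. DESeq2 called 4 lower (9.98% of all genes), and edgeR called 3 lower without scr 25-2 (9.87%) and 1 in each direction without scr 50-1. Lgr5, a Wnt target and receptor for R-spondins, had an RPKM of 26.3 and 50.9 in scr and 12.2, 9.20 and 12.0 in kd (log2 fold change -1.80, SE 0.298, FDR 0.0230). Without 1 kd library the FDR of Lgr5 was 0.0795 to 0.101. Axin2, another Wnt target and the most abundant gene of the list, had a log2 fold change of 0.33 (FDR 0.413). Of 8 periportal genes outside the set, only the cationic amino acid carrier Slc7a2 was tested, and it passed the filter through kd 50-5 alone. Its RPKM was 0.757 and 0.322 in scr and 0.762, 0.618 and 1.56 in kd (log2 fold change 0.85, FDR 0.356). Without kd 50-5 no gene of that list was tested, and over all its genes fitted without the RPKM filter the median was 0.12.

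**Figure D4:**
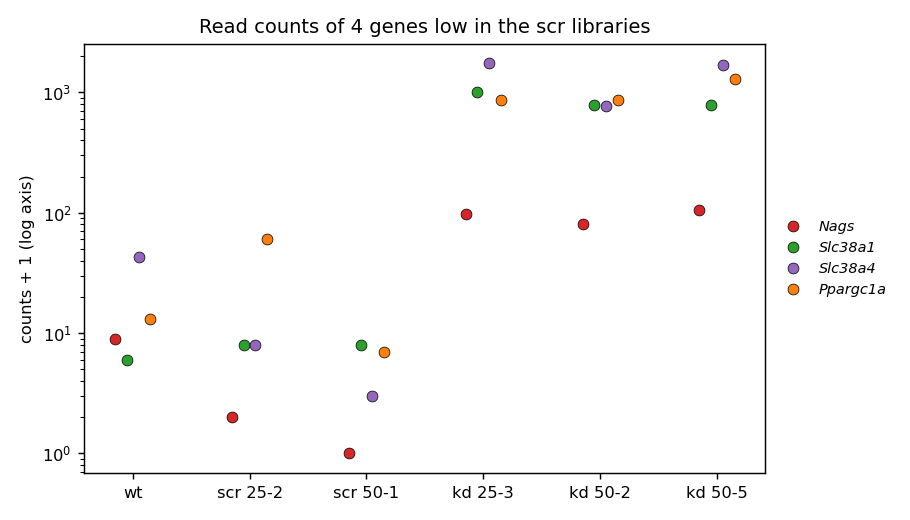
Counts plus 1 (log axis) of Nags, Slc38a1, Slc38a4 and Ppargc1a in each of the 6 libraries, 1 point per gene and library. Nags has 80 to 104 counts in the kd libraries and at most 8 in wt and scr, and the other 3 genes are also higher in every kd library than in any control.

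Markers of the labelled cell type were present, and of the 9 tested 1 was called lower and none higher. The 10 hepatocyte markers, all over an RPKM of 1 in some library, summed to 6110 in wt, 3510 to 4790 in scr and 927 to 1940 in kd. The lower sum came from secreted proteins such as Alb (mean RPKM 2340 in scr and 140 in kd, FDR 0.0712) and Ttr (125 and 1.23, FDR 0.0121, the gene called). Of the tested markers, 4 had positive log2 fold changes, Apob (3.93, FDR 0.0822), Hnf4a (1.23, FDR 0.206), Krt18 (0.87, FDR 0.103) and Krt8 (0.67, FDR 0.410), and every kd library lay above both scr libraries for 2 of the 9 (Apob and Krt18) and below both for 4 (Alb, Afp, Ttr and Fgb), patterns that 25.7% and 24.5% of all tested genes showed. The part of these markers in the results above was not tested. Summed macrophage markers were 3.25 to 4.66 in wt and scr and 6.85 to 9.88 in kd, of which only 1 of 5 exceeded an RPKM of 1 and the Kupffer marker Clec4f had 0 counts. Endothelial markers summed to at most 0.371 and stellate and fibroblast markers to at most 0.894 in scr and kd (2.89 and 1.68 in wt), and cholangiocyte markers to 204 to 565. Spp1 made up most of the last sum. Of the 4 tested cholangiocyte markers, 1 was called lower and none higher, beside 5.23% and 5.4% of all genes tested. Krt7, the gene called, had a log2 fold change of -3.44 (FDR 0.0133, edgeR). Its RPKM was 21.3 and 13.9 in scr and 0.858, 1.89 and 2.15 in kd. Uncalled were Sox9 (0.46, FDR 0.323), Spp1 (0.30, FDR 0.705) and Epcam (-0.12, FDR 0.879). Fewer cells that express a gene and less of its RNA per cell cannot be told apart in these bulk libraries.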

How the data were processed

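Single reads were mapped by the authors to mm10 (TopHat2), and HTSeq (version 0.6.1p1 in the submitters' processing notes) assigned them to RefSeq genes. The deposited counts are raw, and the deposited RPKM values were scaled by the authors with edgeR's TMM factors. The strand setting and the counting mode are not given in the sources used here. Of the library columns, 0 were left unmatched to a sample.

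Counts of 3 kd and 2 scr libraries were tested with edgeR 4.0.16 in R 4.3.3 (quasi-likelihood, TMM) after a filter that required RPKM above 1 in any of the 5, and p-values were adjusted by the Benjamini-Hochberg method over all 11577 genes. The wt library gave values only, except in 1 alternative. Standard errors are the absolute log2 fold change over the square root of F. The common biological coefficient of variation was 0.272, and counting error is small beside it at high counts. At low counts it is not, as for Cps1 (4 to 43 counts) and Tat (0 to 77). The procedure was tested on simulated data with known changes. Alternatives were DESeq2 1.42.0, other scalings and filters, limma 3.58.1 on log2(RPKM + 0.1) and log2(RPKM + 1), wt as a control, the label number as a block and each library left out.

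Named genes are the members, of which 1 is not reported here, Midn, called genes of each list, its 2 uncalled genes with the highest mean RPKM, and the 2 genes nearest each member in pattern. The members and lists were chosen with earlier results of these data known. Transcript matches used blastn 2.17.0 on GENCODE M21, with at least 95% identity over 50 bases. Tables and figures used Python 3.11.15, pandas 2.3.3, scipy 1.17.1 and matplotlib 3.10.9. No label says whether libraries of a group came from separate cultures.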

Additional observations from a re-analysis of the deposited data

Results flagged for a closer look

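The wt library stayed out of the main comparison, and in it 3 of the 5 tested genes lay above both scr libraries. Nags had an RPKM of 0.145 in wt, against 0.0161 and 0 in scr. Glul had an RPKM of 113 in wt, against 82.7 and 110 in scr. Gls2 had an RPKM of 2.23 in wt, against 1.12 and 1.37 in scr. With 1 wt library these differences have no replicate check.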

How the results depend on the processing

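Nags, Slc38a1 and Slc38a4 were called under all 14 alternatives. The edgeR fit called 1230 genes, against 2322 with DESeq2, 807 with the label number as a block and 131 (without kd 50-2) to 2273 (without scr 25-2) with 1 library left out; leaving out kd 25-3 gave 259 and kd 50-5 gave 346. Of the 9 genes, 1 was called, against 2 with DESeq2 and 2 with wt added to the controls (Nags and Asl in both). Over all genes tested these 2 settings called 20.1% and 14.1%, beside 10.6% in the main fit. With any 1 kd library left out, 1 of the 9 was called (Nags), beside 1.14% to 3.01% of all genes tested. Of the list genes, 8 were called, against 18 with DESeq2 and 2 to 18 with 1 library left out. Leaving out scr 25-2 gave 18, scr 50-1 gave 13 and each kd library gave 2. Midn had a log2 fold change of -1.49 to -1.24 with 1 library left out, and its FDR was 0.0525 without kd 50-2 (-1.38). The log2 fold change of Gls2 was -0.21 with wt added and -0.0076 (without scr 25-2) to 0.30 with 1 library left out, and that of Tat -0.15 (without scr 25-2) to 8.75 (without scr 50-1). Tat was under the filter without kd 25-3 and when 2 libraries had to pass it. The cause was not tested. The replicate block used the number in the labels (25 or 50), whose meaning is not given. Deviations from the group means of libraries sharing it correlated at 0.01, -0.068 and 0.068. The deviations of the 2 scr libraries mirror each other, so these correlations cannot decide whether the number marks a shared batch. With the block the FDR of Pcbd1 was 0.0771 (edgeR). Leaving out 1 scr library leaves 1 control, assumed to vary like the kd libraries. For Otc, at 0 counts throughout, a difference was not detectable at this depth.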
